A study of Mus musculus with 16 samples.

Results

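The genes described here are the classical and atypical cadherins Cdh1, Cdh2, Cdh3, Cdh5, Cdh11 and Cdh13, the catenins Ctnna1, Ctnnb1 and Ctnnd1, and the epithelial adhesion molecule Epcam. They are 10 of the 12393 genes with a probe set on the Affymetrix Mouse 430A 2.0 array, taken by name, and all of their 18 probe sets that carry a single gene symbol were used. A probe set is a group of short oligonucleotides that together read 1 or more transcripts of a gene. The 16 profiled tumors are 9 metastases and 7 primary lung adenocarcinomas of p53R172H∆g/+ K-rasLA1/+ mice, with 1 array per tumor. All of these mice were heterozygous for a latent oncogenic K-ras allele, which is activated by spontaneous recombination in somatic cells, and for a mutant p53 knock-in allele. No tumor of another genotype and no normal tissue was part of the comparison. The metastases came from mouse 1 (body wall, inguinal region and liver), mouse 2 (liver), mouse 3 (subcutaneous tissue, heart and mediastinal lymph node) and mouse 4 (mediastinal lymph node and parietal pleura). Each of mice 1 to 4 also gave its primary tumor, and mice 5, 6 and 7 each gave a primary tumor without a profiled metastasis. Mouse 6 was female and the others were male, and the ages of the mice were not given in the sources used here. Tumors were dissected free of neighbouring tissue but the cells were not sorted, so a lower signal can come from fewer cells of a type or from less RNA per cell, and these cannot be told apart.

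Cadherins are calcium-dependent adhesion molecules that bind a like cadherin on the next cell. Inside the cell, p120-catenin (Ctnnd1) and beta-catenin (Ctnnb1) bind the cadherin tail, and alpha-catenin (Ctnna1) links the complex to actin. E-cadherin (Cdh1) and P-cadherin (Cdh3) are found in epithelia, N-cadherin (Cdh2) in neurons, heart muscle and many mesenchymal cells, cadherin-11 (Cdh11) in fibroblasts and bone-forming cells, and VE-cadherin (Cdh5) in endothelium. Cdh13 encodes T-cadherin, a membrane-anchored form without a cytoplasmic tail that is found on endothelium and some other cells. Epcam encodes a calcium-independent adhesion molecule of simple epithelia, such as that of the lung, and is a common marker of carcinoma cells. Loss of Cdh1 and gain of Cdh2 are the textbook signs of a change from an epithelial to a mesenchymal state.

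Values are intensities in arbitrary units on a linear scale. Because every probe set binds with its own strength, levels were compared between tumors and never between probe sets. Differences are given on the log2 scale after values under 1 had been raised to 1. The 9 metastases were set against the 4 primary tumors of the same mice with the mouse as a block, and each p was adjusted over 22626 probe sets. All 16 tumors were also fitted together with the mouse as a random block. Array medians lay between 75.0 and 85.5. The 4 tumors of mouse 3 stood apart from the other 12 at many genes, and the heart metastasis of that mouse carried heart muscle transcripts. Several results are therefore also given without the heart metastasis or without mouse 3. The summed intensity of 10 cardiac muscle genes was 5495 in the heart metastasis and 278 to 394 in the other 15 tumors, although Myh6, the defining myosin of the list, was at 14.2 or less in all tumors. The epithelial keratin gene Krt8 lay between 1365 and 5012 in the metastases and between 1801 and 4740 in the primary tumors. It was 1 of 14 measured epithelial genes, of which 14 had a lower fitted level in the metastases (median log2 difference −1.03, Krt8 −0.39). The type 2 cell surfactant gene Sftpc was at 4802 to 10322 in the primary tumors, and at 87.5 to 123 in the 3 metastases of mouse 3 against 1096 to 6311 in the other 6 metastases.

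Epcam was the member that differed between metastases and primary tumors. Its intensity was 191, 406 and 265 in the body wall, inguinal and liver metastases of mouse 1 and 117 in the liver metastasis of mouse 2. It was 436, 41.7 and 347 in the subcutaneous, heart and lymph node metastases of mouse 3, and 184 (lymph node) and 328 (pleura) in those of mouse 4. In the primary tumors of mice 1 to 7 it was 1218, 1055, 934, 1054, 944, 1564 and 545. The groups did not overlap, since the highest metastasis lay below the lowest primary tumor, a pattern found at 0.318% of all probe sets. Epcam averaged 257 ± 134 in the metastases and 1065 ± 117 in the matched primary tumors (SD, n = 9 and n = 4). It was lower in 9 of 9 metastases than in the primary tumor of the same mouse, with log2 ratios between −4.48 in the heart metastasis and −1.10 in the subcutaneous metastasis, both of mouse 3.

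In the paired limma fit the log2 difference of Epcam was −2.38 (SE 0.56, 95% interval −3.64 to −1.13), a level 5.21-fold lower in the metastases. Its unadjusted p was 0.00173, past the threshold of 0.01 that the study's methods use, and its adjusted p was 0.131. Of the 18 probe sets of the members, 1 was lower at p under 0.01 and 0 were higher, while over the whole array 2.84% were lower and 1.14% were higher at that threshold. At an adjusted p under 0.05 the limma count for the members was 0, beside 0.34% lower and 0.0133% higher over the array, and 2 members' probe sets, both lower, had an unadjusted p under 0.05, as had 7.1% lower and 4.28% higher over the array. In the fit of all 16 tumors the Epcam difference was −2.28 (SE 0.42, adjusted p = 0.0142 by limma), so that Epcam fell by this test. It was the only member's probe set called there, and over the array that fit called 0.955% lower and 0.283% higher.

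Epcam had its lowest value in the heart metastasis. Without that tumor the difference was −2.11 in the paired limma fit (adjusted p = 0.0362) and −1.997 in the fit of all 16 tumors (adjusted p = 0.0022). Without mouse 1 the paired difference was −2.47 with an unadjusted p of 0.0159, so it no longer passed the threshold of 0.01. The call of the 16-tumor fit was lost without mouse 1 (−2.40, adjusted p = 0.116 by limma) and without mouse 2 (−2.13, adjusted p = 0.0803). The mean log2 ratio of each mouse was −2.15, −3.17, −2.34 and −2.10 for mice 1 to 4. With 4 mice the smallest p of an exact two-sided sign-flip test is 0.125, and Epcam reached that value. Cdh13 and Ctnnd1 reached it too, with smaller means over the mice (−0.42 and −0.22, against −2.44 for Epcam).

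**Figure D1:**
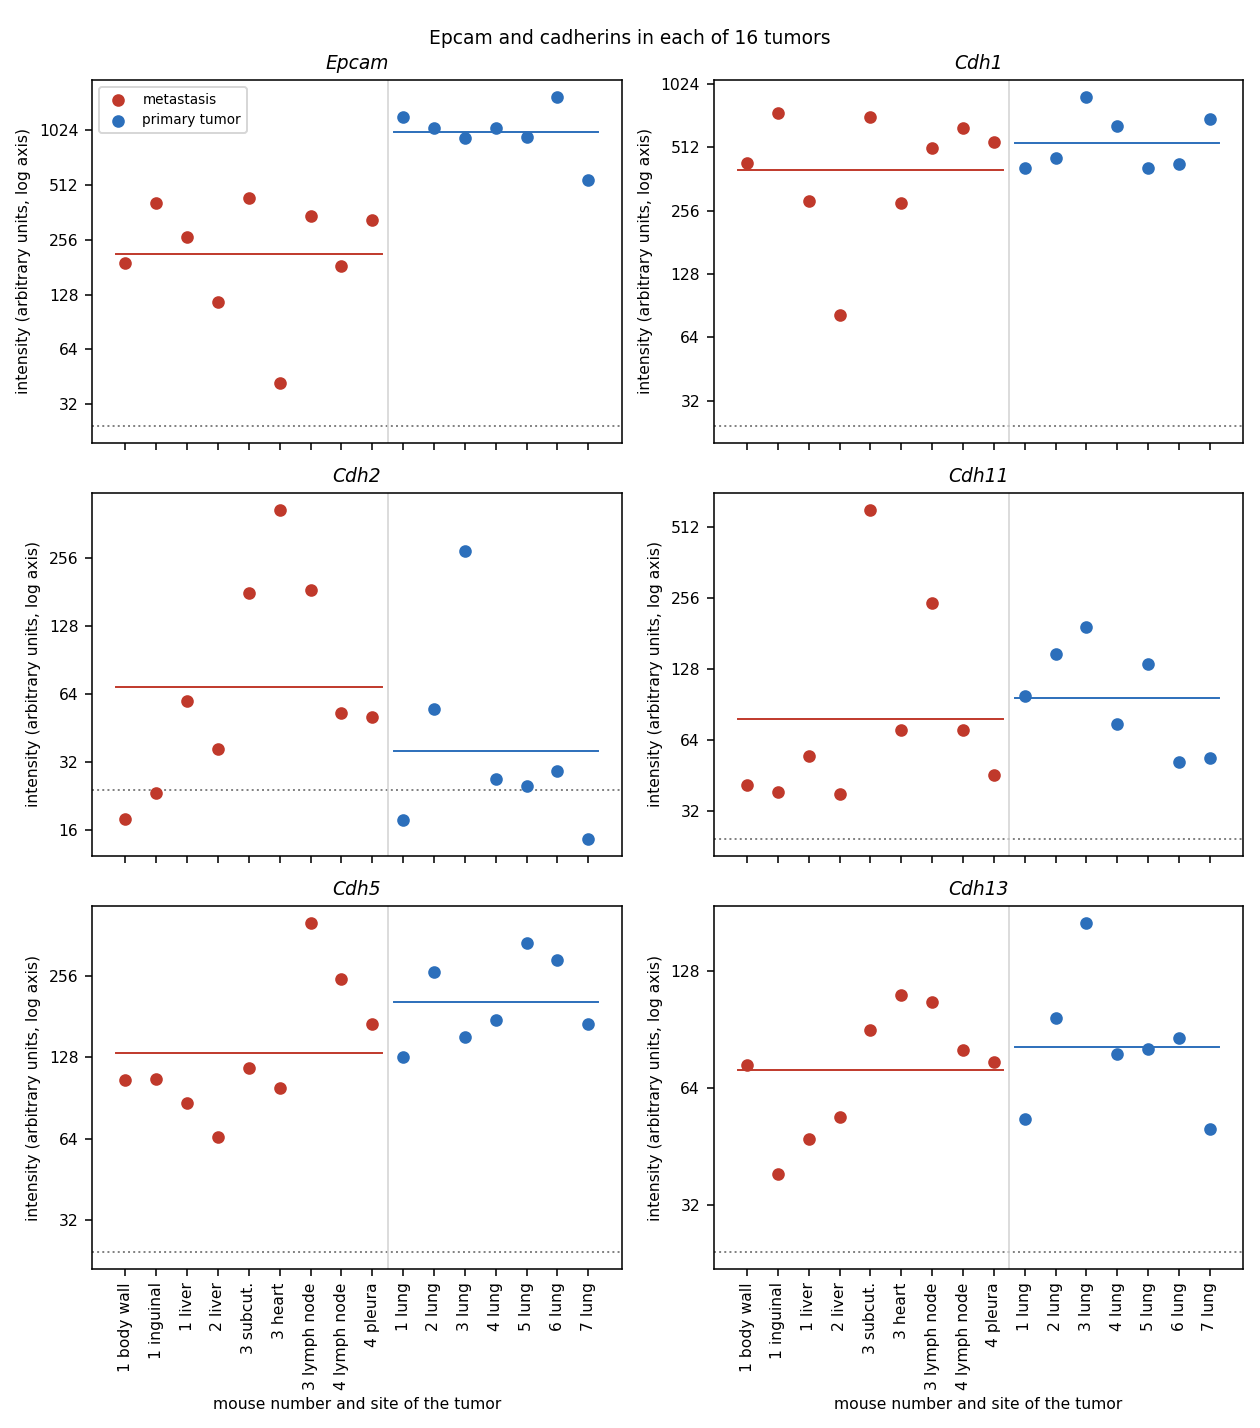
Intensity (log axis, arbitrary units) of the brightest probe set of 6 genes in each tumor, with the 9 metastases (red) left of the 7 primary tumors (blue), solid lines at the geometric mean of each group and a dotted line at 24.3, the 25th percentile of all values on the arrays. Epcam is the gene whose groups do not overlap, and Cdh2 is high in the 3 metastases and the primary tumor of mouse 3.

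The stretch upstream of Epcam is shown because this member had the largest difference between the groups. The Zeb and Snail families of repressors are also known to bind the E-box letters CACCTG in epithelial promoters. The 250 bases before the start of Epcam lie at chr17:87635729-87635978 on the plus strand (RefSeq, GRCm38.p6), and capitals mark CACCTG and its reverse complement CAGGTG.
Epcam upstream window: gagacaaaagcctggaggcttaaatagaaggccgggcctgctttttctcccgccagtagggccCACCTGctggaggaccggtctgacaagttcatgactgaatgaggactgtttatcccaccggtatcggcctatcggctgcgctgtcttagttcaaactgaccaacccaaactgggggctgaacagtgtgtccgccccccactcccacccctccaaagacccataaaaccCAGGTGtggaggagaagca
The window held 2 matches on both strands together. Of 32851 promoter windows of the same length, 17.2% held at least 1 match and 2.06% held at least 2. Promoter windows were found for 3 of the 10 members, Epcam, Ctnnb1 and Ctnnd1.

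For E-cadherin the groups overlapped and no difference was called. Cdh1 was at 433, 746 and 283 in the body wall, inguinal and liver metastases of mouse 1, at 82.1 in the liver metastasis of mouse 2, at 710, 280 and 506 in the subcutaneous, heart and lymph node metastases of mouse 3, and at 635 (lymph node) and 542 (pleura) in mouse 4. In the primary tumors of mice 1 to 7 it was at 406, 454, 890, 646, 408, 427 and 700. Of the metastases, the liver metastasis of mouse 2 and the heart and liver metastases of mice 3 and 1 lay below all primary tumors, and the other 6 lay within their range. The log2 difference was −0.72 (SE 0.41, 95% interval −1.63 to 0.19, adjusted p = 0.564 by limma), with 7 of 9 metastases below their own primary tumor. This interval spans levels in the metastases of 0.324 to 1.14 times those in the primary tumors. The liver metastasis of mouse 2 weighed on the difference, which was −0.32 without it and −1.06 without mouse 1 (unadjusted p = 0.407 and 0.0523 by limma).

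The liver metastasis of mouse 2, which had the lowest Cdh1, was also lowest for Krt8 (1365) and for the summed intensity of 14 epithelial genes (5674, against 6646 to 13843 in the other metastases and 7545 to 17657 in the primary tumors). Krt8 is part of that sum. By the mean log2 value of the same genes the heart metastasis of mouse 3 was lowest (7.21), and the liver metastasis of mouse 2 was next (7.36). Hepatocyte genes summed to 5899 in the liver metastasis of mouse 2, and to 6782, 8902 and 8944 in the body wall, inguinal and liver metastases of mouse 1. The sum was thus high at sites other than the liver too, and does not measure liver tissue alone. The mean log2 value of the same genes, which weights them equally, had another order. It was 8.47 and 7.65 in the liver metastases of mice 1 and 2, and 7.61 and 7.20 in the inguinal and body wall metastases of mouse 1. The part of hepatocytes in the Cdh1 values was not tested. Within each metastasis the log2 ratio of Epcam was below that of Cdh1, with differences from −2.81 in the heart metastasis to −0.61 in the lymph node metastasis, both of mouse 3. Averaged by mouse the gap was −2.30, −0.70, −1.40 and −1.96 for mice 1 to 4 (mean −1.59 ± 0.70, SD, exact two-sided sign-flip p = 0.125, the smallest possible). Without the heart metastasis the mean of mouse 3 was −0.69, and the gap was below 0 in 8 of 8 metastases.

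P-cadherin was dim. The single Cdh3 probe set lay under the 25th percentile of the array values (24.3) in 16 of 16 tumors, between 1.00 and 8.99 in the metastases and between 1.77 and 13.9 in the primary tumors. Its difference of 0.13 (SE 0.70, adjusted p = 0.968 by limma) changed sign with the floor put under the values. Cdh3 lies next to Cdh1 on mouse chromosome 8 with no other protein-coding gene between them, and their levels had a Pearson r of 0.25 over the 16 tumors.

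N-cadherin was high in the tumors of mouse 3, metastases and primary tumor alike. At its brighter probe set, Cdh2 was at 180, 420 and 185 in the subcutaneous, heart and lymph node metastases of mouse 3 and at 276 in the primary tumor of that mouse. In the 6 metastases of the other mice it was at 18.1, 23.4 and 59.8 (body wall, inguinal and liver of mouse 1), 36.8 (liver of mouse 2), and 53.0 and 50.8 (lymph node and pleura of mouse 4). In the other 6 primary tumors it was between 14.6 and 55.4. The 4 tumors of mouse 3 thus lay above the other 12 without overlap, as did those of the dimmer Cdh2 probe set, at 123 to 306 in mouse 3 and 5.33 to 35.9 in the other mice. Over the array 2.46% of probe sets had this order, and among the members both Cdh2 probe sets did and none of another gene.

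The 2 Cdh2 probe sets had an r of 0.98 over the 16 tumors. In the paired fit, an F-test for differences between mice, added after these values had been seen, gave adjusted p-values of 0.0102 and 0.0148 (limma), beside 5.09% of all probe sets that passed it. Leaving out the tumors of mouse 3 in turn, the brighter probe set had an adjusted p of 0.0249 to 0.043 and the dimmer one 0.0336 to 0.0575, the last value without the primary tumor. Between metastases and primary tumors the difference of the brighter probe set was 0.27 (SE 0.37, 95% interval −0.56 to 1.11, adjusted p = 0.843 by limma), with 6 of 9 metastases above their own primary tumor. The dimmer probe set had 0.25 (SE 0.48, adjusted p = 0.891 by limma), with 4 of 9 metastases above their own primary tumor. The difference of the brighter one was 0.18 without the heart metastasis, 0.13 without the liver metastasis of mouse 1 and 0.47 without that of mouse 2. In the fit of all 16 tumors it was 0.75, and 0.54 without mouse 3 (adjusted p = 0.636 and 0.565 by limma). The log2 ratio was highest in the liver metastasis of mouse 1, at 1.75, where Cdh2 was at 59.8 against 17.8 in its primary tumor. That primary tumor, and 3 others of the 16 tumors, were under 24.3, the 25th percentile of all values on the arrays, at this probe set.

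Genes of heart muscle, a tissue that uses N-cadherin, were high in the heart metastasis. Its cardiac sum was 5495 and its Tnnt2, a heart troponin, was at 1269, while the other tumors of mouse 3 had cardiac sums of 341 to 394 and Tnnt2 of 33.0 to 102 and Cdh2 at 180 to 276. Fibroblast genes summed to 18698 to 25112 in the metastases of mouse 3 and to 9682 in its primary tumor, against 2902 to 9856 in the other metastases and 1980 to 4562 in the other primary tumors. Of these 11 genes, 8 had a higher and 3 a lower fitted level in the metastases. Fbln2 (1.36), Thy1 (1.08) and Col3a1 (1.07) had a paired limma p under 0.01, and 0 passed an adjusted p of 0.05. In the fit of all 16 tumors Thy1 passed it (adjusted p = 0.0481 by limma). The mesothelial marker Msln, which also occurs in carcinomas, was at 748 to 1268 in the metastases of mouse 3 and at 1108 in its primary tumor, and between 49.9 and 217 in the other 12 tumors. No difference between mice was called for the other measured mesothelial genes, Upk3b and Wt1. Their adjusted p in the limma F-test for mice was 0.4755 and 0.327, against 0.00033 for Msln. Wt1 was under the 25th percentile in 15 of 16 tumors, so its values say little. The mesenchymal filament gene Vim was at 5064 to 6545 in mouse 3 and at 527 to 4517 in the others. The part of heart muscle, fibroblasts or mesothelium in the Cdh2 values was not tested. Krt8 was at 3718 to 5012 and Cdh1 at 280 to 890 in the same 4 tumors, so both epithelial and mesenchymal transcripts were present in their RNA.

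Cadherin-11 set the tumors of mouse 3 apart only in part. Cdh11 was at 604 in the subcutaneous and 242 in the lymph node metastasis of mouse 3, the tumors with the largest fibroblast sums (25112 and 20765), but at 70.6 in the heart metastasis, whose fibroblast sum was 18698. The other 6 metastases lay between 37.6 and 70.5. The primary tumors of mice 1 to 7 were at 98.1, 148, 192, 74.6, 135, 51.6 and 53.5. The log2 difference was −0.74 (SE 0.51, 95% interval −1.88 to 0.39, adjusted p = 0.646 by limma), and 7 of 9 metastases were below their own primary tumor. Without the liver metastasis of mouse 2 it was −0.46. Without mouse 3 it was −1.10 with an unadjusted p of 0.00857 and an adjusted p of 0.27, so the count of members lower at p under 0.01 becomes 2 there.

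**Figure D2:**
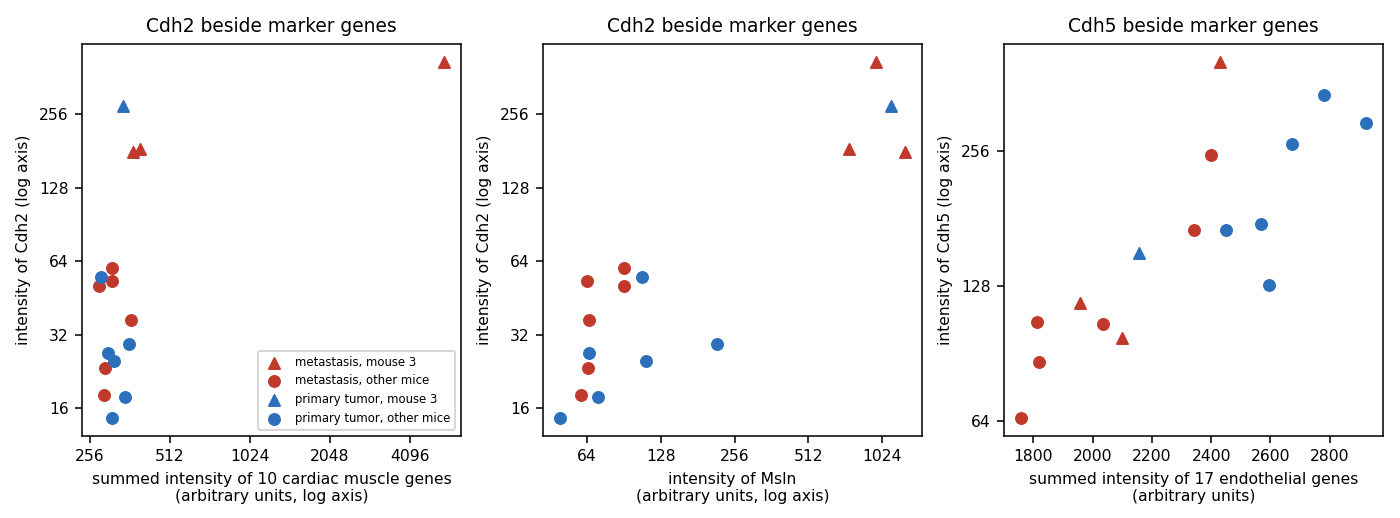
Intensity of Cdh2 (left, middle) and Cdh5 (right) on log axes against the summed intensity of 10 cardiac muscle genes, the intensity of Msln and the summed intensity of 17 endothelial genes (the last on a linear axis) in the 9 metastases (red) and 7 primary tumors (blue), with triangles for mouse 3. The 4 triangles are the highest for Cdh2 while only the heart metastasis has a cardiac sum above 394, and the tumor with the highest Cdh5 is the lymph node metastasis of mouse 3, at an endothelial sum of 2429.

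The endothelial cadherins were not called. Cdh5 was at 105, 106 and 86.8 in the body wall, inguinal and liver metastases of mouse 1, at 65.1 in the liver metastasis of mouse 2, at 117, 98.2 and 404 in the subcutaneous, heart and lymph node metastases of mouse 3, and at 251 (lymph node) and 170 (pleura) in mouse 4. In the primary tumors of mice 1 to 7 it was at 129, 265, 152, 176, 341, 295 and 171. The 2 lymph node metastases had the highest Cdh5 of the metastases, and 6 metastases lay below all primary tumors. The log2 difference was −0.39 (SE 0.42, 95% interval −1.32 to 0.54, adjusted p = 0.791 by limma), and it was −0.0118 without the liver metastasis of mouse 2. A second Cdh5 probe set, between 32.3 and 85.8 in the metastases and 43.7 and 76.3 in the primary tumors, had a difference of −0.11 (SE 0.23). Of 17 other endothelial genes, none of them a member, 16 had a lower and 1 a higher fitted level, with a median of −0.25, and Vwf alone (von Willebrand factor, −4.61, unadjusted p = 0.000408) had a p under 0.01. The adjusted p of Vwf was 0.0716 by limma. Its mean in the metastases was 16.8 and 8 of the 16 tumors were under 24.3, so its difference depends on near-background values. The summed intensity of the 17 endothelial genes was 1760 to 2429 in the metastases and 2156 to 2923 in the primary tumors.

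T-cadherin was at 38.6 to 111 in the metastases and 50.4 to 171 in the primary tumors at its brightest probe set. The Cdh13 difference was −0.39 (SE 0.20, 95% interval −0.82 to 0.05, adjusted p = 0.508 by limma) and was below 0 in 7 of 9 metastases. The highest value was that of the primary tumor of mouse 3, and the F-test for mice had an adjusted p of 0.0584. A second probe set gave −0.11 (SE 0.10) and its dimmest, under the 25th percentile in 16 of 16 tumors, −0.33 (SE 0.46).

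The catenins were not called. Alpha-catenin (Ctnna1) was at 1170 to 2061 in the metastases and 1174 to 1933 in the primary tumors, with a difference of −0.15 (SE 0.16, 95% interval −0.51 to 0.21, adjusted p = 0.789 by limma). The highest value belonged to the heart metastasis, also at a second probe set (1636), whose difference was −0.03 (SE 0.23). The dimmest Ctnna1 probe set was under the 25th percentile in 16 of 16 tumors. p120-catenin (Ctnnd1) was at 247 to 577 in the metastases and 189 to 493 in the primary tumors, with a difference of −0.23 (SE 0.18, 95% interval −0.64 to 0.18, adjusted p = 0.702 by limma).

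Beta-catenin, the partner of cadherins that also carries Wnt signals to the nucleus, differed between its probe sets. The brightest Ctnnb1 probe set was at 988 to 2943 in the metastases and 1525 to 3532 in the primary tumors and had a difference of 0.01 (SE 0.24, 95% interval −0.53 to 0.55, adjusted p = 0.996 by limma). The other probe sets had −0.51 (SE 0.21, unadjusted p = 0.0316, adjusted p = 0.373) and −0.26 (SE 0.19, adjusted p = 0.67). Those 2 dimmer ones had an r of 0.86 with each other over the 16 tumors, and the brightest had an r of 0.23 and 0.36 with them. All 3 were lowest among the metastases in the liver metastasis of mouse 2 (988, 390 and 383), the tumor with the lowest Cdh1. Of 10 measured genes that beta-catenin is known to activate, such as Axin2, 5 had a lower and 5 a higher fitted level, 0 had a limma p under 0.01, 1 had one under 0.05 (Lef1, −1.15, under the 25th percentile in 16 of 16 tumors) and the median was 0.02.

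**Figure D3:**
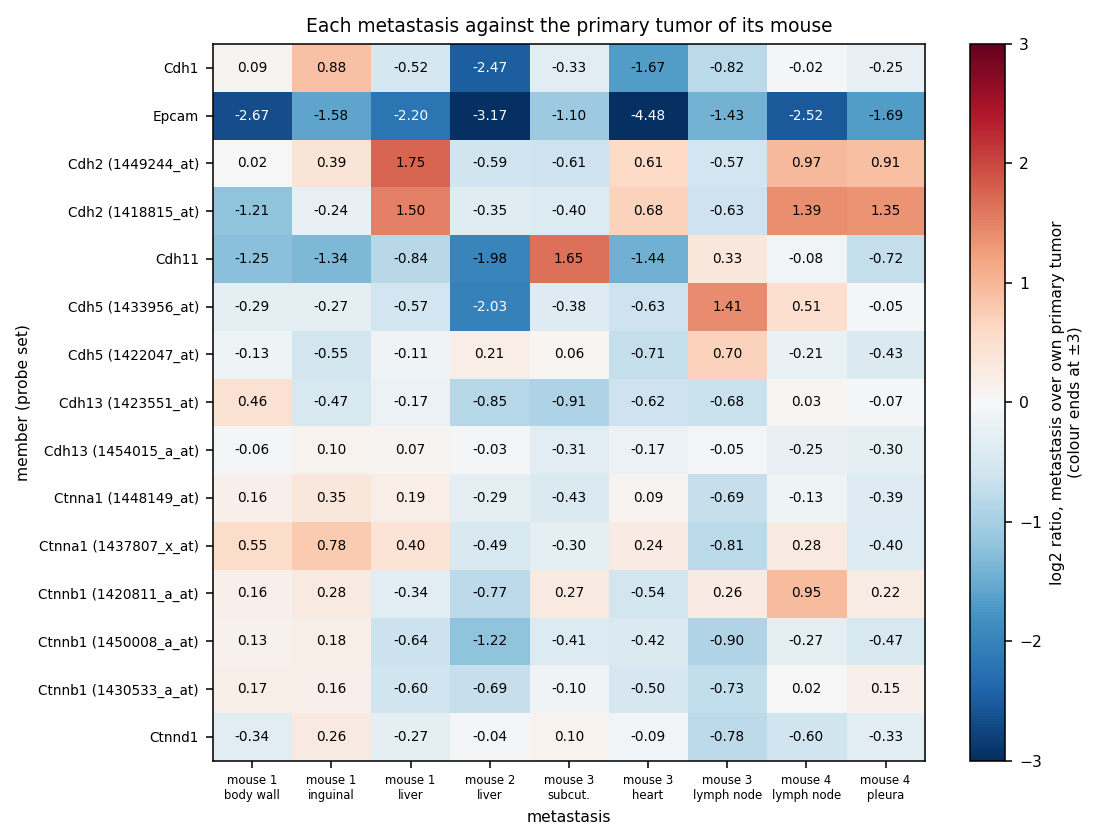
Log2 ratio of each of the 9 metastases over the primary tumor of its mouse (columns) for the 15 members' probe sets with at least 1 tumor at or above the 25th percentile (rows), with blue for lower and red for higher. The Epcam row is below 0 in 9 of 9 columns, −4.48 to −1.10, and no other row has the same sign in all columns.

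**Figure D4:**
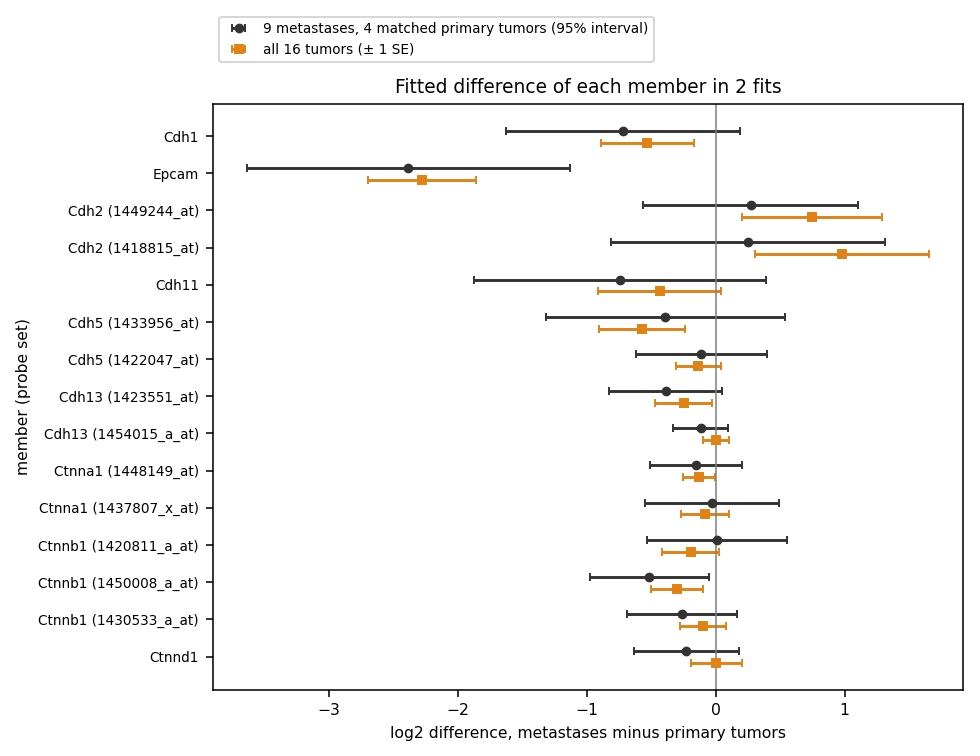
Fitted log2 difference, metastases minus primary tumors, for the same 15 probe sets, from the 13 tumors of mice 1 to 4 (circles with 95% intervals) and from all 16 tumors (squares with 1 SE). Epcam lies at −2.38 and −2.28, and the 95% interval of the remaining members includes 0 except for 1 of the 3 Ctnnb1 probe sets, at −0.51.

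Set against each other, the 10 members at their brightest probe sets had a median log2 difference of −0.31, with 7 of 10 below 0, beside a median of −0.02 and 52.5% below 0 over all probe sets. The textbook exchange of E-cadherin for N-cadherin was examined in each metastasis as the log2 ratio of Cdh2 minus that of Cdh1. It was above 0 in 6 of 9 metastases, from −0.49 in the inguinal metastasis of mouse 1 to 2.28 in the heart metastasis. The mouse means were 0.57, 1.88, 0.74 and 1.08 for mice 1 to 4, above 0 in 4 of 4 mice (mean 1.07 ± 0.58, SD, exact two-sided sign-flip p = 0.125, the smallest possible). These values are those of the brighter Cdh2 probe set. At the dimmer one the mean Cdh2 ratio of mouse 1 was 0.02, against 0.15 for Cdh1, so there mouse 1 was below 0. For mouse 3 the heart metastasis set the sign, since the subcutaneous and lymph node metastases of that mouse had −0.29 and 0.24. Without the heart metastasis the mean of mouse 3 was −0.02, 3 of 4 mice were above 0, and the mean over mice was 0.88 ± 0.81 (SD, exact two-sided sign-flip p = 0.25). In mouse 2 the positive value came with Cdh2 lower than in the primary tumor (−0.59) and Cdh1 lower still (−2.47), and in mouse 4 with Cdh2 higher (0.94) and Cdh1 at −0.14. Cdh11 minus Cdh1 had no common sign, with mouse means of −1.29, 0.48, 1.12 and −0.26.

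No gene was called among the further cadherins, the further adherens junction genes and the repressors of Cdh1. Of 11 measured further cadherins, 3 had a lower and 8 a higher fitted level, the median was 0.15, and 0 had a limma p under 0.01. The smallest limma p-values were those of Cdh23 (0.34, adjusted p = 0.31) and Cdh4 (0.29, adjusted p = 0.38). Of 18 measured further genes of adherens junctions, 11 had a lower and 7 a higher level, the median was −0.04, and 0 had a p under 0.01. Jup, which encodes plakoglobin, a close relative of beta-catenin, had −0.38 (SE 0.21, adjusted p = 0.54). Of the 6 known repressors of Cdh1, 5 had a higher and 1 a lower level, the median was 0.28 and 0 had a p under 0.01. Zeb1, a repressor of Cdh1 and other epithelial genes, was nearest to it, at 237 ± 23.4 in the metastases and 192 ± 26.8 in the matched primary tumors (SD, n = 9 and n = 4, difference 0.29, unadjusted p = 0.0305, adjusted p = 0.369 by limma).

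The list of epithelial genes outside the members did hold calls. Of 14 measured epithelial genes, 14 had a lower fitted level, with a median of −1.03, 8 passed p under 0.01 and 2 passed an adjusted p of 0.05 in the paired limma fit, namely Cldn3 (−1.14, adjusted p = 0.0236) and St14 (−1.69, adjusted p = 0.0243). Cldn3 encodes a claudin of tight junctions and St14 the membrane protease matriptase. Esrp1, a splicing factor of epithelial cells, had the largest difference among those at p under 0.01 (−3.67, adjusted p = 0.0795), and Ehf, an epithelial transcription factor, followed (−2.43, adjusted p = 0.108). Both were dim in the metastases, with means of 24.9 for Esrp1 and 12.9 for Ehf, and 6 and 8 of the 16 tumors were under 24.3, so these differences depend on near-background values. Krt8 and Krt18, the main keratins of simple epithelia, had −0.39 and −0.17 (adjusted p = 0.569 and 0.796) and, like Cdh1, did not pass. The keratins Krt7 and Krt19 had larger differences, −1.43 and −0.92, and did not pass either (adjusted p = 0.356 and 0.361 by limma). Of the markers of lung epithelial cells, 0 of 12 type 2 cell genes, 0 of 7 type 1 cell genes and 2 of 5 club cell genes were lower at an adjusted p under 0.05, and 6, 2 and 4 of them at an unadjusted p under 0.01 (limma). The summed intensity of 12 type 2 cell genes was 1752 to 35667 in the metastases and 19773 to 57762 in the primary tumors, and that of the type 1 cell genes was 1354 to 5452 in the metastases and 2786 to 7430 in the primary tumors. Both sums overlapped between the groups. The sum of 5 club cell genes was 325 to 704 in the metastases and 1478 to 5767 in the primary tumors, without overlap. The part of admixed lung cells or fibroblasts in the Epcam values was not tested.

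As a description, the genes whose log2 values had the highest Pearson r with a member over the 16 tumors were taken from 10187 genes. These tumors share mice and sites, and no test was made. For Epcam they were Spint1 (0.96), Krt7 (0.94), Esrp1 (0.92), Mapk13 (0.91) and Cldn7 (0.91), with log2 differences between −3.67 and −1.36. For Cdh1 they were Mbnl1 (0.88), Rnf121 (0.85), Bcap29 (0.83), Fli1 (0.81) and Mlx (0.81). For Cdh2 they were Ifi202b (0.95), Ltbp1 (0.95), Ank (0.94), Dkk3 (0.94) and Igfbp4 (0.94). For Cdh5 they were Adipor1 (0.91), Degs1 (0.90), Mknk2 (0.88), Cldn5 (0.88) and Tmem268 (0.87), of which Cldn5 is a claudin of endothelium. Between members, Epcam and Cdh1 had an r of 0.47, Cdh2 and Cdh13 of 0.72, Cdh5 and Ctnnb1 of 0.70, Cdh1 and Ctnnb1 of 0.61, and Cdh1 and Cdh2 of 0.05. Cdh11 and Cdh5, which lie next to each other on chromosome 8, had an r of 0.35.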

How the data were processed

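One Affymetrix Mouse 430A 2.0 array per tumor was hybridized, and the authors computed the deposited intensity values, on a linear scale, with the model of dChip that subtracts mismatch from perfect match probes, after normalization to an invariant set. Versions were not given in the sources used here. Of 22690 probe sets, 64 controls were left out. GEO's platform annotation gives 1 symbol to 20380 probe sets, several to 691 and none to 1555, and probe sets with several were not named. Values under 1 were raised to 1 and log2 values tested in limma 3.58.1 (R 4.3.3) with Benjamini-Hochberg adjustment, after the script had been tested on simulated data. The paired fit of 13 tumors has 8 residual degrees of freedom and counts metastases of 1 mouse as separate replicates, so its p-values are not at the level of the animal. The pairing comes from the mouse numbers. The deviations of a metastasis and its own primary tumor had an r between −0.00 and 0.40, the highest of the 4 for 6 of 9 metastases. In the 16-tumor fit the correlation within a mouse was 0.238. A gene was led by its brightest probe set, and genes at p under 0.01 were named for some of the lists. The genes and lists were chosen with earlier results of these data known. Alternatives were floors at the 10th (5.54) and 25th (24.3) percentiles, dim probe sets left out (76.1% kept), quantile or median scaling, a variance trend, 1 ratio per mouse, the methods' paired t-test, no block, other probe sets, and each mouse or metastasis left out. The number of arrays limits the precision.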

Additional observations from a re-analysis of the deposited data

Results flagged for a closer look

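Dixon's criterion was applied to linear intensities in 20 groups of tumors (10 genes in metastases and in primary tumors). In 5 of them a tumor lay far from the rest of its group. The criterion's chance rate of about 1 in 20 holds for normally distributed values. Linear intensities can be skewed to the high side, so the count of 5 cannot be set against that rate. All 5 were high values in tumors of mouse 3. On the log2 scale used for the differences, the flagged tumors can be others. Cdh2 was at 420 in the heart metastasis, with the next metastasis at 185, and at 276 in the primary tumor of mouse 3, with the next primary tumor at 55.4. Cdh11 was at 604 in the subcutaneous metastasis of mouse 3, with the next metastasis at 242. Cdh13 was at 171 in the primary tumor of mouse 3, with the next primary tumor at 97.3. Ctnna1 was at 2061 in the heart metastasis, with the next metastasis at 1494. Mice 1, 3 and 4, which gave more than 1 metastasis, were also compared in pairs, 30 comparisons over the 10 genes. In 2 of them every metastasis of one mouse lay on the opposite side of 0 from every metastasis of the other. Neither difference was tested. With 2 or 3 metastases per mouse such a pattern can also arise by chance, and its rate was not worked out. Cdh3 had a mean log2 ratio of −2.19 in the 3 metastases of mouse 1 and 1.89 in the 2 metastases of mouse 4, a difference of −4.09 at a probe set dimmer than 24.3, the 25th percentile, in each tumor. Ctnna1 had 0.23 in mouse 1 and −0.26 in mouse 4, a difference of 0.49.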

How the results depend on the processing

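Cdh1, Epcam, Cdh2, Cdh11, Cdh5 and Cdh13 kept the direction of their difference in each alternative run, but of these Epcam alone kept near its size (−2.54 to −2.11, adjusted p of 0.0142 to 0.438). Cdh1 ranged from −1.06 to −0.32, Cdh2 from 0.05 to 0.75, Cdh11 from −1.10 to −0.44, Cdh5 from −0.60 to −0.0118 and Cdh13 from −0.52 to −0.11, and none of these 5 passed an adjusted p of 0.05. The count of members' probe sets at p under 0.01 was 1 and ranged from 0 (without mouse 1) to 2 (without mouse 3, Epcam and Cdh11) when a mouse or metastasis was left out. The count at an adjusted p under 0.05 was 0, and became 1 (Epcam) with dim probe sets left out (adjusted p = 0.0478, with fewer probe sets tested), with the methods' paired t-test (0.019) and with all 16 tumors (0.0142), and ranged from 0 to 1 when tumors were left out, with 1 without the heart metastasis. For all 16 tumors it was 1, and 0 to 1 without each mouse or the heart metastasis, an alternative added after the values had been seen. The F-test for mice called 2 members' probe sets, and 1 to 2 without each tumor of mouse 3. Without the mouse as a block (no pairing) Epcam had −2.31 (adjusted p = 0.134) and the count at p under 0.01 was 1. Signs turned only at members near 0. The cause was not tested. Cdh3 (0.13) became −0.14 with the floor at the 10th percentile and −0.18 in the methods' paired t-test, and ranged from −0.46 to 1.04 with tumors left out. Ctnna1 (−0.15) was 0.39 at its dimmest probe set. Ctnnb1 (0.01) became −0.0404 with 1 ratio per mouse, −0.19 with all 16 tumors and −0.51 and −0.26 at its other probe sets, and ranged from −0.18 to 0.19 with tumors left out. Ctnnd1 (−0.23) was 0.00588 with all 16 tumors. Over the whole array the adjusted calls were 77 lower and 3 higher in the paired limma fit, 205 and 31 with dim probe sets left out, 196 and 28 with a variance trend, 43 and 0 without the block, 53 and 1 with median centring, 625 and 260 in the methods' paired t-test, 216 and 64 with all 16 tumors, and 0 with 1 ratio per mouse in limma, where 431 lower and 140 higher had an unadjusted p under 0.01.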

Other observations

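Among the further cadherins, chosen after their values had been seen, Cdh17 and Cdh16 also differed between mice in the F-test of the paired limma fit (adjusted p = 0.000906 and 0.00364). Cdh17, a cadherin of intestinal epithelium, was at 164 to 216 in the 3 metastases of mouse 3 and at 333 in its primary tumor, while the other 12 tumors were at 40.0 or less. Cdh16, a cadherin of kidney epithelium, was at 79.0 to 98.8 in the metastases of mouse 3 and at 83.1 in its primary tumor. Mice 1, 2 and 4 had it at 233 to 629 in their metastases and at 303 to 405 in their primary tumors, and at 82.1 to 110 in the primary tumors of mice 5, 6 and 7.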
